A study of Homo sapiens with 6 samples.

Results

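The translation factor genes were taken as every gene on the array whose symbol begins with EIF1 to EIF6, EEF1 or EEF2, or is ETF1, GSPT1 or GSPT2, and that had a probe set annotated to that gene alone. This gave 65 genes of 19775, measured by 161 of 41091 probe sets with 1 gene symbol. They comprise the initiation and elongation factors, the release factors, 4 kinases named after eIF2 (EIF2AK1 to EIF2AK4), enzymes that modify elongation factors, and 4 noncoding transcripts named after a neighbouring factor gene. The rule goes by gene name, and it was set with earlier results of these data known.

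RNA came from HT29, a human cell line of colorectal adenocarcinoma origin. The 3 treated cultures, called cocoa here, received 500 µg of the polyphenolic cocoa extract PCE for 24 h. The sources used here state no volume, so that no concentration can be given. The 3 control cultures were labelled untreated, while the protocol text gives saline to controls. All 6 cultures started from 300000 cells on 100 mm plates in F12 medium with 7% serum, and each was read on 1 Affymetrix U133 Plus 2.0 array. Nothing in the labels says whether the cultures were grown on separate days, so that each p-value reflects the spread of these 6 cultures alone, which may be technical.

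Translation of an mRNA begins when eIF2, loaded with GTP and initiator tRNA, joins the small ribosomal subunit together with eIF3, eIF1, eIF1A and eIF5. The eIF4 proteins bind the cap of the mRNA, unwind its leader and bring the subunit to it. After the start codon is found, eIF5B joins the large subunit, eEF1A delivers aminoacyl-tRNAs, eEF2 moves the ribosome along, and the release factors eRF1 and eRF3 end the chain. Cells slow this process chiefly at 2 points. One is phosphorylation of the alpha subunit of eIF2 by the 4 EIF2AK kinases, which blocks the exchange factor eIF2B, and the other is capture of the cap-binding protein eIF4E by the 4E-binding proteins. Transcript levels, which these arrays measured, report neither phosphorylation nor the rate of translation.

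Values are log2 expression centred on each probe set's median over the 6 arrays, so that 0 marks a gene's middle array and levels of different genes cannot be compared. A difference is the mean of the cocoa arrays minus the mean of the control arrays on that log2 scale, with limma's moderated standard error (SE). A member is said to have risen, fallen or changed when limma's Benjamini-Hochberg adjusted p over all 19775 genes was below 0.05.

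After cocoa, 16 of the 65 genes changed (24.6%), against a background of 13.5% of all genes. Of these, 4 rose (6.15%, against 7.36% of all genes) and 12 fell (18.5%, against 6.12% of all genes). The genes that rose were EIF2AK2, EIF4E3, EEF1A2 and EEF1AKMT3, and those that fell were EIF5A, EIF2B2, EIF5, EIF2S3, EIF3B, EIF3H, EIF1AD, EIF3I, EIF4E2, EIF2B5, ETF1 and EIF4A3. RNA was pooled over each culture, so that less transcript in every cell and fewer cells making it cannot be told apart. The differences were small apart from EIF2AK2: the 12 decreases ran from −0.53 to −0.26 and the other 49 members lay between −0.31 and 0.19. The median difference of the 65 genes was −0.13, beside −0.01 for all genes, and 49 of the 65 (75.4%) were negative, beside 53.6% of all genes. All 3 cocoa arrays lay below all 3 control arrays in 35 members (53.8%), where the background is 17.0% of all genes, and above them in 7 (10.8%), where it is 15.4%. Together the groups did not overlap in 42 members (64.6%), where the background is 32.5%.

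Of the 16 calls, 12 were lost in at least 1 of the fits that left out an array. Without control array 2, 5 of the 65 members were past the threshold (2 higher and 3 lower, background 6.65%), and without cocoa array 2, 11 were (2 higher and 9 lower, background 9.04%). EIF2AK2, EIF4E3, EIF2B2 and EIF5 kept their calls whichever array was left out. Without cocoa array 1, 0 of the 16 calls were lost, and the losses were 5 without cocoa array 2, 5 without cocoa array 3, 7 without control array 1, 11 without control array 2 and 6 without control array 3, and no difference changed sign. The 18S ribosomal RNA control signal read −0.51, 3.31 and 1.4 in the cocoa arrays and −1.12, 0.51 and −0.53 in the control arrays. The 5′ minus 3′ signal of the actin and GAPDH control probe sets, which falls when RNA is shortened, was 0.03, −0.26 and −0.05 in the cocoa arrays and 0.03, 0.03 and 0.01 in the control arrays. Cocoa array 2, which stood apart in both, gave the lowest value for 26 of the 65 members (40.0%, against 19.1% of all genes). With the 18S signal as a covariate, 3 members remained past the threshold (EIF2AK2, EIF4E3 and EIF2B2, background 5.58%), and with the 5′ minus 3′ signal the same 3 and EIF2B5 did (background 7.14%). Without probe sets ending in _s_at or _x_at, which can also read related transcripts, 14 of the 16 changed genes were measured and 10 kept their call, while EIF1AD, EIF4E2, EIF5 and ETF1 lost it. The part of RNA quality in the members' differences was not otherwise tested.

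**Figure D1:**
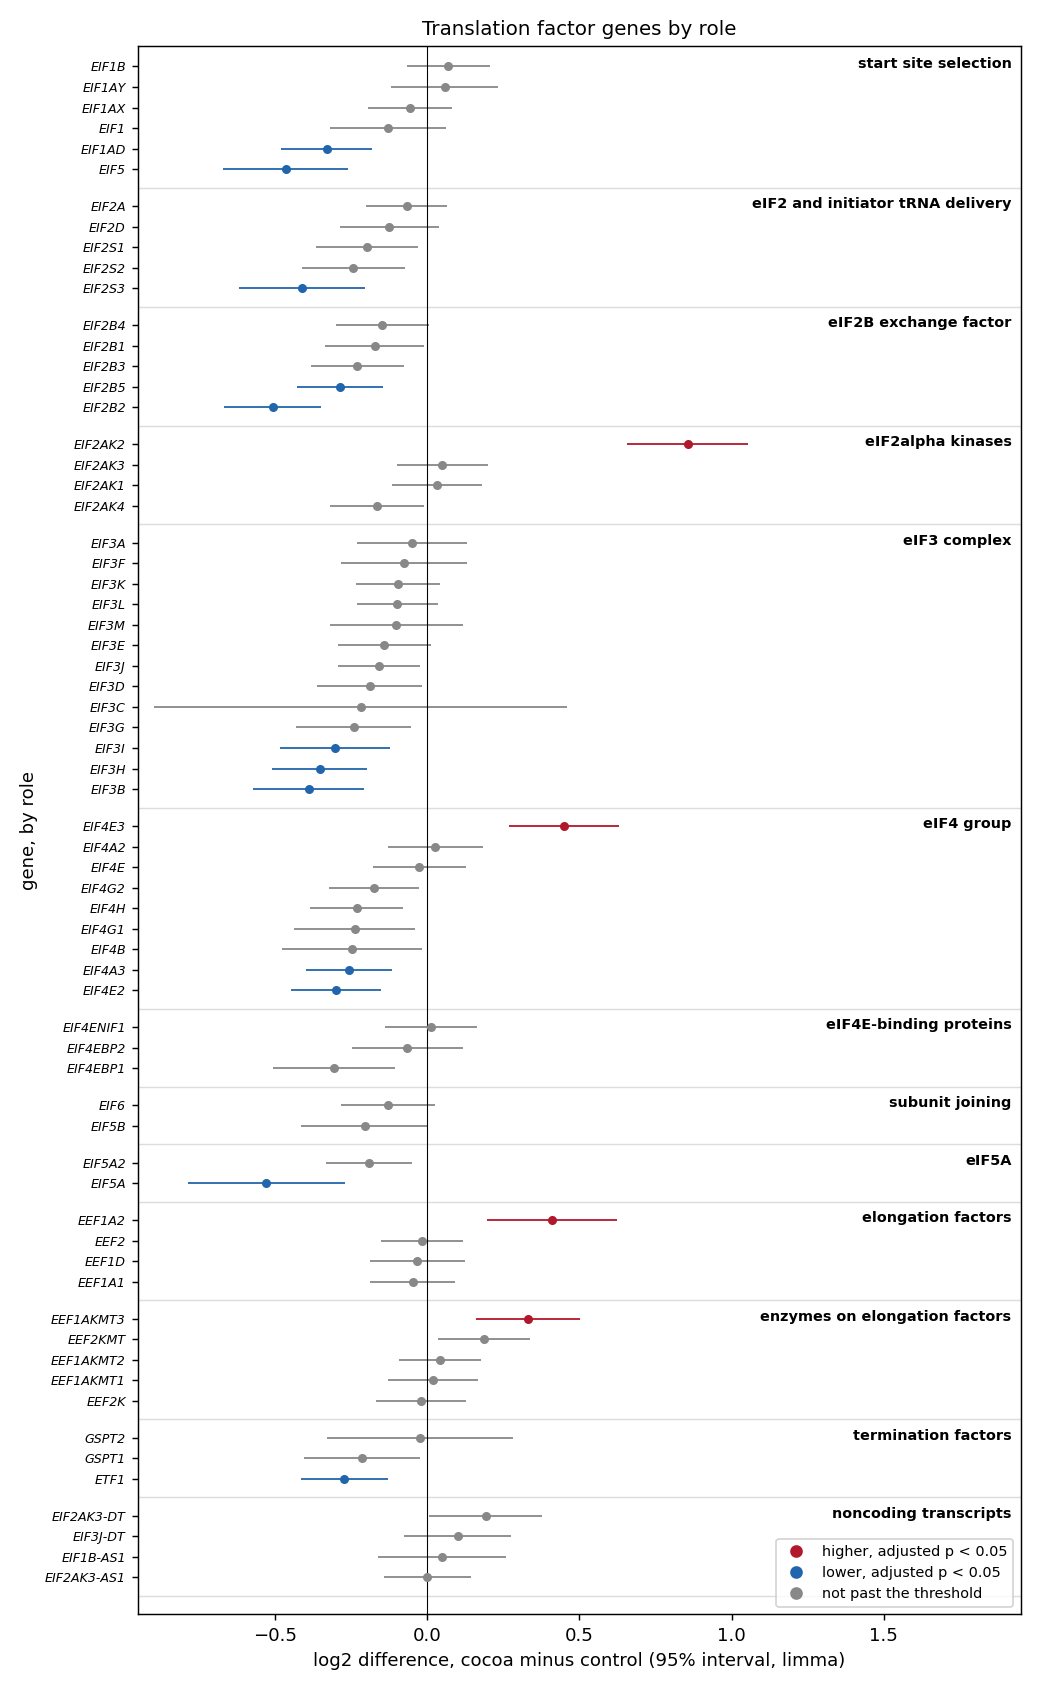
Log2 difference, cocoa minus control (x axis), of each translation factor gene (y axis, grouped by role), as points with 95% intervals from limma; red is higher and blue lower at an adjusted p below 0.05, and grey did not pass. All 13 eIF3 genes and all 5 eIF2B genes lie left of 0 with all 6 arrays. Of all genes 53.6% lie left of 0, and of the 65 members 75.4%. EIF3A, EIF3C and EIF3F crossed 0 without 1 cocoa array, and EIF3C with either RNA-quality covariate. EIF2AK2 stands at 0.86 on the right.

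The largest difference of the group belonged to EIF2AK2, which encodes PKR, the kinase that binds double-stranded RNA and phosphorylates eIF2 in virus-infected cells, and which interferon induces. Its values were 0.619, 0.349 and 0.654 in the cocoa arrays and −0.375, −0.293 and −0.276 in the control arrays. Each cocoa culture was above each control culture, with a wide gap between the groups. The difference was 0.86 (SE 0.09, 1.81-fold, adjusted p = 0.000512 by limma), and the adjusted p stayed between 0.000381 and 0.00355 in the fits without 1 array. All 3 of its probe sets were higher after cocoa: by 1.20 for 213294_at (adjusted p = 0.000414 over all probe sets, limma) and by 0.59 for 204211_x_at (adjusted p = 0.00793, limma). The third, 242898_at, read 1.009, 0.058 and 0.909 in the cocoa arrays and −0.212, −0.091 and −0.058 in the control arrays. It did not pass over all probe sets (0.78, adjusted p = 0.0686, limma), and its cocoa array 2 lay close to the controls.

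The other 3 eIF2 kinases did not pass the threshold. EIF2AK1 encodes HRI, the heme-regulated kinase, and read 0.025, 0.052 and −0.066 in the cocoa arrays and 0.021, −0.054 and −0.052 in the control arrays. Its groups overlapped, and the 95% interval of its difference ran from −0.12 to 0.18 around 0.03 (adjusted p = 0.821, limma). EIF2AK3 encodes PERK, the kinase of the endoplasmic reticulum stress response, and read 0.04, 0.095 and −0.027 in the cocoa arrays and −0.053, −0.037 and 0.051 in the control arrays. These groups overlapped too, and the difference of 0.05 had an interval from −0.10 to 0.20 (adjusted p = 0.718, limma). EIF2AK4, which encodes GCN2, the sensor of uncharged tRNA, averaged −0.17 (adjusted p = 0.154, limma), but that mean joined a pair of probe sets that went opposite ways. Probe set 237145_at read −0.5, −0.519 and −0.362 in the cocoa arrays and 0.605, 0.531 and 0.362 in the control arrays. Probe set 225164_s_at read 0.297, 0.638 and 0.183 in the cocoa arrays and −0.316, −0.263 and −0.183 in the control arrays. In neither did the groups overlap: the first fell by 0.96 (adjusted p = 0.000876, limma) and the second rose by 0.63 (adjusted p = 0.0169, limma). EIF2AK4 was the only member of the 65 with probe sets past the threshold in both directions, and which of its transcripts each probe set reads is not given in the files, so that no direction is stated for the gene. When probe sets ending in _s_at or _x_at were left out, only the first remained and the gene itself passed at −0.96 (adjusted p = 0.000222, limma).

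**Figure D2:**
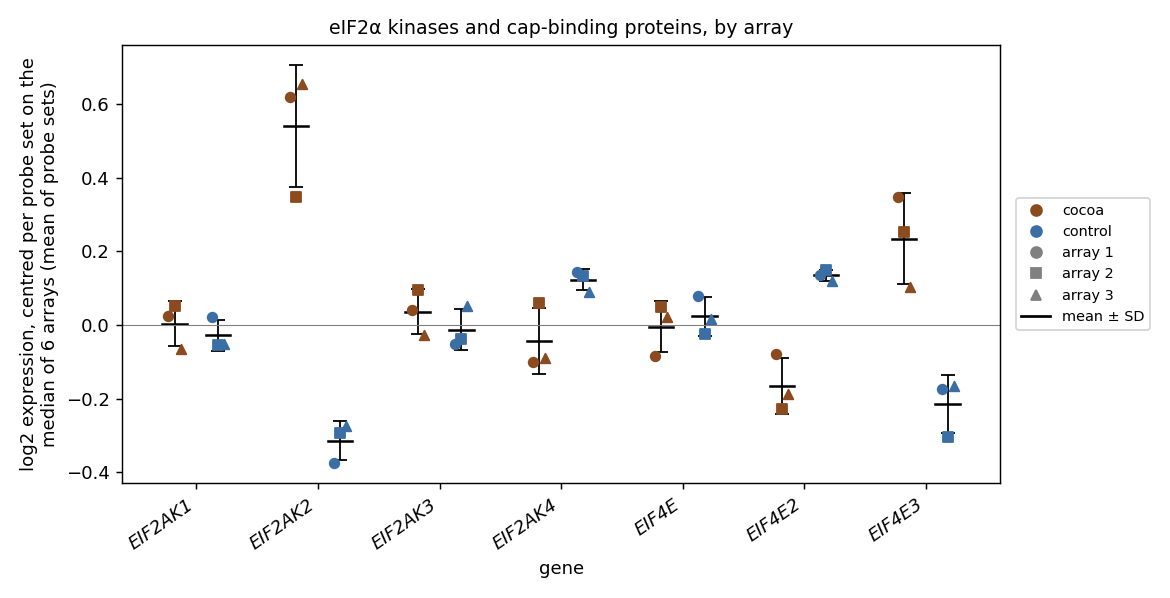
Centred log2 values (y axis) of the eIF2 kinases and of the cap-binding proteins of the eIF4E family (x axis), 1 point per array with cocoa in brown left of control in blue, the mark's shape giving the array number and bars the mean ± SD of 3 arrays. EIF2AK2 and EIF4E3 show cocoa arrays above control arrays, EIF4E2 the reverse, and EIF4E overlaps.

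Because EIF2AK2 is a gene that interferon induces, the start region of its promoter is shown. The RefSeq promoter table (GRCh38.p14) held windows from 250 bases before to 50 bases after the transcription start for 52 of the 65 members, 69 windows in all. The interval below is chr2:37156971-37157030 on the minus strand, from 50 bases before to 10 bases after the start, with the interferon-stimulated response element core in capitals.
EIF2AK2: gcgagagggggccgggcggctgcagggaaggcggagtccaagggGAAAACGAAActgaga
The core searched for was GAAA, any 2 bases and GAAA again, on both strands. In EIF2AK2 it begins 6 bases before the annotated start and runs across it. It was found in 1255 of the 35116 windows in the table (3.57%) and in 6 of the 69 member windows (8.70%), which belonged to EIF2A, EIF2AK2, EIF3C, EIF3K and EIF6. Only EIF2AK2 of these 5 was past the threshold. EIF2A, EIF3C and EIF3K are named here for their sequence, after their values were seen, and a match of letters does not show that a factor binds.

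In the group of eIF2 and initiator tRNA delivery, 1 of 5 genes fell and the other 4 lay between −0.24 and −0.07. The group joins the eIF2 subunit genes EIF2S1, EIF2S2 and EIF2S3 with EIF2A and EIF2D, whose proteins are not subunits of eIF2. Here and for each group below, the backgrounds are 7.36% of all genes higher, 6.12% lower and 53.6% negative. EIF2S3, the GTP-binding gamma subunit, read −0.147, −0.447 and −0.158 in the cocoa arrays and 0.164, 0.237 and 0.083 in the control arrays. The groups did not overlap, cocoa array 2 was the lowest, and the gene fell by 0.41 (SE 0.09, adjusted p = 0.0181, limma). Its adjusted p was 0.0817 without control array 2. None of its 3 probe sets passed alone over all probe sets (−0.83, −0.23 and −0.18, with adjusted p-values from limma of 0.0544, 0.11 and 0.202). EIF2S1, the alpha subunit that the kinases phosphorylate, read 0.016, −0.203 and −0.133 in the cocoa arrays and 0.142, 0.079 and 0.054 in the control arrays. Its groups did not overlap, and its difference of −0.20 missed the threshold (adjusted p = 0.118, limma), although probe set 201144_s_at alone fell by 0.44 (adjusted p = 0.0105 over all probe sets, limma).

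All 5 subunits of eIF2B, the factor that reloads eIF2 with GTP, had every cocoa array below every control array. The background of that separation is 17.0% of all genes, and 53.8% of the 65 members had it. Of the 5 subunits, 2 fell, against 6.12% of all genes. EIF2B2, the beta subunit, read −0.262, −0.304 and −0.179 in the cocoa arrays and 0.337, 0.179 and 0.266 in the control arrays. It fell by 0.51 (SE 0.07, adjusted p = 0.002, limma), the decrease with the smallest adjusted p among the members. That call held without each array in turn (adjusted p at most 0.0113) and with the 18S signal as a covariate (adjusted p = 0.0204). EIF2B5, the catalytic epsilon subunit, read −0.194, −0.147 and −0.151 in the cocoa arrays and 0.126, 0.07 and 0.178 in the control arrays. The spread within each group was small beside the gap, and the gene fell by 0.29 (SE 0.06, adjusted p = 0.0163, limma). Its adjusted p was 0.0631 without control array 3. The other 3 subunits lay between −0.23 and −0.15 and missed the threshold.

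Among the 6 genes of start codon selection, 2 fell. EIF5, which stimulates GTP hydrolysis by eIF2 at the start codon, read −0.259, −0.481 and −0.127 in the cocoa arrays and 0.212, 0.178 and 0.141 in the control arrays. The cocoa arrays were spread more widely than the control arrays and did not reach them. It fell by 0.47 (SE 0.09, adjusted p = 0.0099, limma), all 5 of its probe sets were negative (−0.73 to −0.26), and the call held without each array in turn (adjusted p at most 0.044). Without probe sets ending in _s_at or _x_at, the 1 that remained read −0.26 and the call was lost (adjusted p = 0.0764, limma). EIF1AD, a nuclear protein related in sequence to eIF1A, read −0.1, −0.165 and −0.113 in the cocoa arrays and 0.274, 0.214 and 0.128 in the control arrays. The groups did not overlap, and it fell by 0.33 (SE 0.07, adjusted p = 0.0112, limma, and 0.0546 without control array 2). Probe set 223682_s_at read −0.53 (adjusted p = 0.0143 over all probe sets, limma) and probe set 239377_at −0.13 (adjusted p = 0.345, limma). The other 4 genes, eIF1 and eIF1A genes, lay between −0.13 and 0.07.

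Each of the 13 measured eIF3 genes, which encode the scaffold that holds the small subunit, mRNA and initiator tRNA together, had a negative difference with all 6 arrays, with a median of −0.16. That sign was not kept everywhere: EIF3C, named after its values were seen, was −0.22 with all 6 arrays but 0.19 with the 18S covariate, 0.20 with the 5′ minus 3′ covariate and 0.05 without cocoa array 2, and EIF3A and EIF3F were 0.01 and 0.02 without cocoa array 3. The test passed for 3 of them, and the other 10 lay between −0.24 and −0.05. EIF3B, a core subunit, read −0.062, −0.219 and −0.247 in the cocoa arrays and 0.091, 0.276 and 0.277 in the control arrays. Cocoa array 1 and control array 1 were the nearest to each other, and the gene fell by 0.39 (SE 0.08, adjusted p = 0.0129, limma), with all 6 probe sets negative (−0.66 to −0.24). EIF3H, an outer subunit, read −0.191, −0.3 and −0.128 in the cocoa arrays and 0.168, 0.176 and 0.1 in the control arrays. The control arrays lay close together above all cocoa arrays, and the gene fell by 0.35 (SE 0.07, adjusted p = 0.0101, limma). EIF3I, a subunit bound to EIF3B, read −0.092, −0.342 and −0.102 in the cocoa arrays and 0.125, 0.158 and 0.092 in the control arrays. Cocoa array 2 was far below the other two, the decrease was 0.30 (SE 0.08, adjusted p = 0.0365, limma), and the call was kept in only 1 of the 6 fits without 1 array. Without control array 2 the adjusted p-values of EIF3B, EIF3H and EIF3I were 0.0645, 0.0537 and 0.132. EIF3A, the largest scaffold subunit, read 0.043, 0.03 and −0.156 in the cocoa arrays and −0.081, 0.068 and 0.085 in the control arrays. Its groups overlapped (−0.05, 95% interval −0.23 to 0.13, adjusted p = 0.759, limma).

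**Figure D3:**
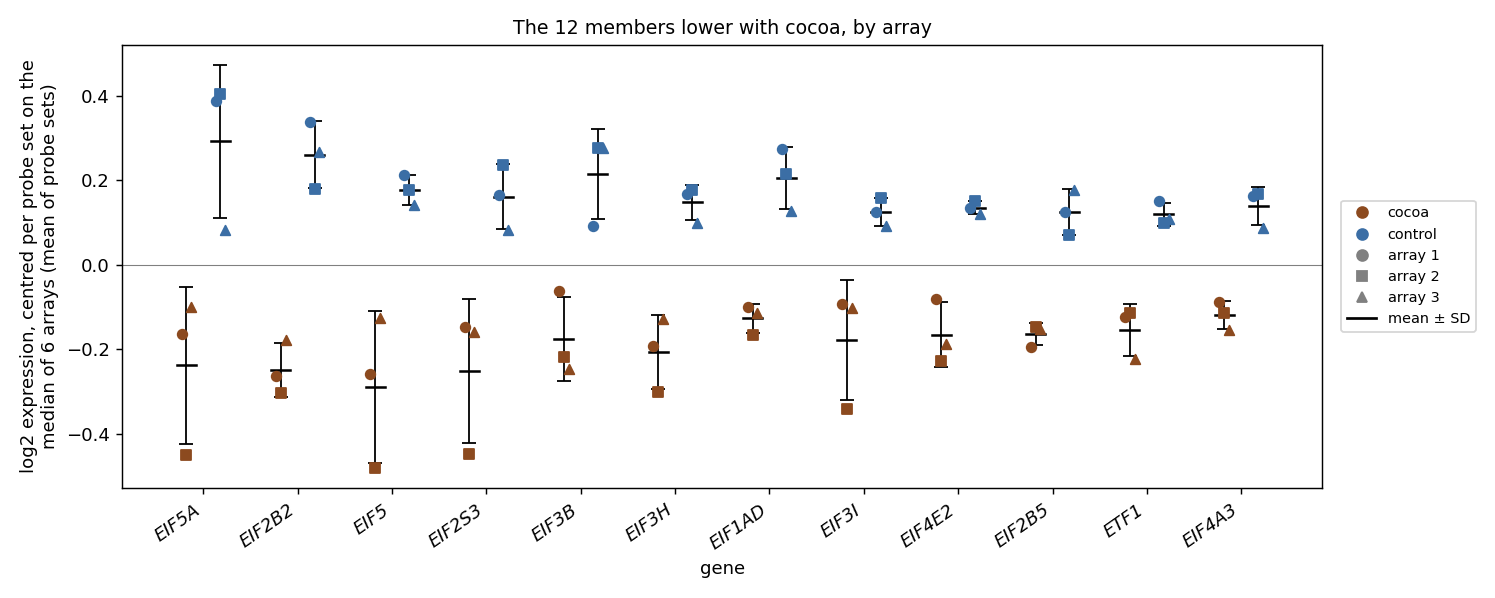
Centred log2 values (y axis) of the 12 translation factor genes that fell (x axis), 1 point per array with cocoa in brown left of control in blue, the mark's shape giving the array number and bars the mean ± SD of 3 arrays. No cocoa array reaches a control array in any of the 12, which were called as lower from these same values. The lowest array is then always a cocoa array, and it is cocoa array 2 in 8 of them. Of all genes, 17.0% have every cocoa array below every control array, and 19.1% have their lowest value in cocoa array 2.

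The 3 cap-binding proteins of the eIF4E family did not move together. EIF4E3, an atypical member that binds the cap without promoting growth as eIF4E does, rose. It read 0.347, 0.253 and 0.102 in the cocoa arrays and −0.173, −0.305 and −0.167 in the control arrays. The groups were well apart, and the difference was 0.45 (SE 0.08, 1.36-fold, adjusted p = 0.00705, limma, at most 0.04 without 1 array). Its 4 probe sets were all positive, from 0.26 to 0.79. EIF4E2, or 4EHP, which binds the cap and represses translation, read −0.08, −0.228 and −0.188 in the cocoa arrays and 0.135, 0.15 and 0.119 in the control arrays. The controls were almost level, and the gene fell by 0.30 (SE 0.07, adjusted p = 0.0166, limma, and 0.0761 without control array 2). EIF4E, the main cap-binding protein, read −0.084, 0.05 and 0.021 in the cocoa arrays and 0.079, −0.025 and 0.015 in the control arrays. These groups overlapped (−0.03, 95% interval −0.18 to 0.13, adjusted p = 0.859, limma), and its 5 probe sets ran from −0.29 to 0.38, with 242674_at higher (adjusted p = 0.0328 over all probe sets, limma).

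The rest of the eIF4 group held 1 further decrease. EIF4A3, the DEAD-box helicase of the exon junction complex, read −0.088, −0.115 and −0.155 in the cocoa arrays and 0.163, 0.168 and 0.088 in the control arrays. The arrays of each group lay close together, and it fell by 0.26 (SE 0.06, adjusted p = 0.0247, limma, and 0.11 without control array 2). EIF4G1, the scaffold that joins the cap-binding protein to eIF3, read −0.016, −0.209 and −0.339 in the cocoa arrays and 0.041, 0.115 and −0.003 in the control arrays. The groups came close without overlapping, and the gene missed the threshold (−0.24, adjusted p = 0.112, limma). EIF4A1, the main cap-complex helicase, had no probe set of its own here.

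Of the proteins that capture eIF4E, none of the 3 measured passed the threshold. EIF4EBP1, the best known target of mTOR in this family, was just outside it. It read −0.102, −0.231 and −0.068 in the cocoa arrays and 0.349, 0.106 and 0.068 in the control arrays. The groups did not overlap, control array 1 was the highest, and the difference was −0.31 (SE 0.09, adjusted p = 0.0503, limma). EIF4EBP2 read 0.121, −0.118 and −0.1 in the cocoa arrays and 0.067, 0.071 and −0.038 in the control arrays. Its groups overlapped (−0.07, adjusted p = 0.683, limma). EIF4EBP3 was read only by a probe set shared with another gene.

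EIF5A had the largest decrease of the 65 genes. It encodes the factor that carries the amino acid hypusine and helps ribosomes past stretches such as proline runs. Its values were −0.164, −0.449 and −0.101 in the cocoa arrays and 0.388, 0.405 and 0.083 in the control arrays. The groups did not overlap, but cocoa array 3 and control array 3 came near each other. It fell by 0.53 (SE 0.11, adjusted p = 0.0159, limma, and 0.0714 without control array 2), and its 3 probe sets ran from −0.56 to −0.49. All 3 end in _s_at or _x_at and can also read related transcripts, so that the gene was not measured without such probe sets. Neither gene of subunit joining passed, EIF6, which keeps the large subunit from joining early, among them. It read −0.006, −0.161 and −0.049 in the cocoa arrays and 0.107, 0.057 and 0.006 in the control arrays (−0.13, adjusted p = 0.277, limma). The groups were separated by a narrow margin.

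Of 9 elongation factor and modifying enzyme genes, 2 rose (22.2%) and 0 fell (median 0.02), against 7.36% of all genes higher and 6.12% lower. In 9 genes, 0 decreases lies near that background. The 9 leave out EIF5A, which is described above as helping ribosomes past proline runs and which fell by 0.53. They also leave out EIF5A2 (−0.19, adjusted p = 0.0751, limma), so that the count of 0 depends on this grouping. Of the 40 genes grouped with initiation by name, EIF5A and the 4E-binding proteins not counted, 1 rose (2.50%) and 10 fell (25.0%), with a median of −0.18. The 10 include EIF1AD, EIF4A3 and EIF4E2, whose descriptions above are not those of initiation factors. The difference between the groups was not tested, since genes are not replicates. EEF1A1, the abundant tRNA carrier, read −0.011, −0.069 and −0.013 in the cocoa arrays and −0.007, −0.003 and 0.062 in the control arrays. Its difference was −0.05 (95% interval −0.19 to 0.09, adjusted p = 0.695, limma), with a single probe set of 6, 227708_at, lower by itself (−0.37, adjusted p = 0.0385 over all probe sets, limma). EEF2, the translocase, read −0.024, 0.028 and −0.035 in the cocoa arrays and 0.014, 0.014 and −0.005 in the control arrays. All 6 arrays lay within a narrow band (−0.02, 95% interval −0.15 to 0.12, adjusted p = 0.898, limma). EEF2K, the kinase that inhibits eEF2, read 0.006, 0.06 and −0.067 in the cocoa arrays and −0.015, 0.013 and 0.066 in the control arrays. It too overlapped (−0.02, 95% interval −0.17 to 0.13, adjusted p = 0.884, limma).

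The gene pair that rose in this group were a tissue-restricted paralogue and an enzyme. EEF1A2 encodes the eEF1A form of muscle and neurons, which some tumours also make. It read 0.184, 0.289 and 0.069 in the cocoa arrays and −0.069, −0.226 and −0.394 in the control arrays. The control arrays were the more spread, and the difference was 0.41 (SE 0.09, 1.33-fold, adjusted p = 0.021, limma, and 0.0739 without control array 2). EEF1AKMT3, a methyltransferase that acts on a lysine of eEF1A, read 0.069, 0.194 and 0.188 in the cocoa arrays and −0.069, −0.282 and −0.189 in the control arrays. The groups did not overlap, and the difference was 0.33 (SE 0.08, 1.26-fold, adjusted p = 0.021, limma, and 0.0979 without control array 2). Each of these genes was read by 1 probe set, and that of EEF1AKMT3 ends in _s_at, so that this gene was not measured without such probe sets.

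Of the 3 release factor genes, 1 fell. ETF1 encodes eRF1, which reads stop codons, and its values were −0.124, −0.113 and −0.224 in the cocoa arrays and 0.15, 0.098 and 0.109 in the control arrays. The groups were clearly apart, and it fell by 0.27 (SE 0.06, adjusted p = 0.0222, limma, and 0.0796 without control array 1). GSPT1, which encodes its GTPase partner eRF3a, read 0.053, −0.234 and −0.151 in the cocoa arrays and 0.035, 0.141 and 0.138 in the control arrays. Cocoa array 1 lay among the controls, and the gene did not pass (−0.22, adjusted p = 0.133, limma). Its probe sets disagreed: 201912_s_at fell by 0.58 (adjusted p = 0.0133, limma) and 215438_x_at fell by 0.39 (adjusted p = 0.0273, limma), while 225276_at read 0.18 (adjusted p = 0.204, limma). The 4 noncoding transcripts lay between 0.00 and 0.19, and none passed.

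**Figure D4:**
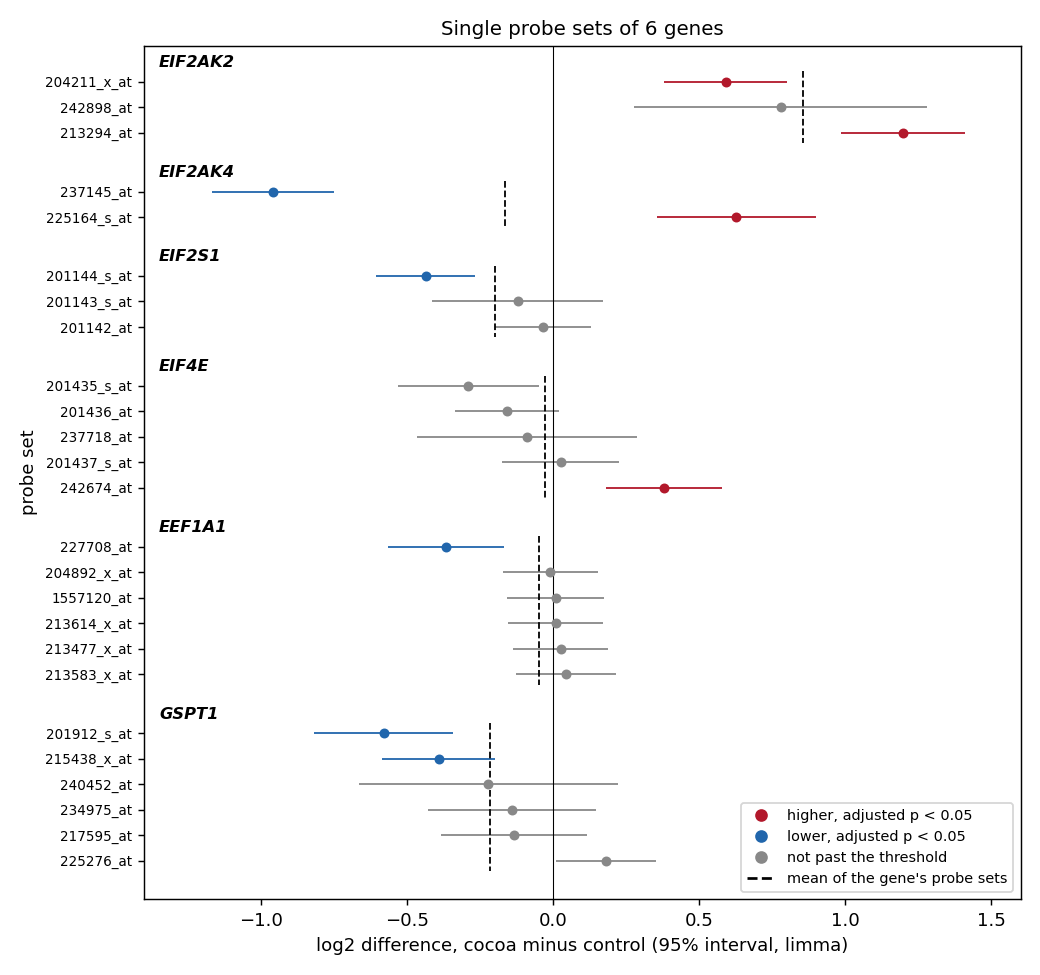
Log2 difference, cocoa minus control (x axis), of each probe set of EIF2AK2, EIF2AK4, EIF2S1, EIF4E, EEF1A1 and GSPT1 (y axis), as points with 95% intervals from limma; red is higher and blue lower at an adjusted p below 0.05 over all probe sets, grey did not pass, and a dashed line marks the mean of a gene's probe sets. The 3 probe sets of EIF2AK2 lie right of 0, while those of EIF2AK4 lie on both sides.

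Over all probe sets of the members, 25 of 161 passed, against a background of 7.98% of all probe sets on the array. Of these, 7 were higher (background 4.68%) and 18 lower (background 3.30%). Of the 16 genes that changed, 11 were read by several, which shared a sign in all 11. A gene's value is the mean of its probe sets, so that opposite signs cancel and such a gene is called less readily. The agreement in the 11 thus follows in part from how they were chosen and is no separate support. In 26 of the 42 members read by several probe sets, all of them shared a sign. At least 1 probe set passed over all probe sets in 11 of the 16 changed genes, not the same 11. None did in EIF2S3, EIF3I, EIF4A3, EEF1AKMT3 and ETF1 (smallest adjusted p of each 0.0544, 0.0802, 0.0688, 0.0526 and 0.0582, limma). A gene's probe sets can read different transcript ends, which the table does not separate.

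Set beside the factors, the kinases had a median difference of 0.04 and the 57 other protein-coding members one of −0.15, and neither median was tested. The median of all genes was −0.01. The kinase median takes EIF2AK4 at −0.17, the mean of probe sets at −0.96 and 0.63, although no direction is stated for that gene. Within each array, the kinase median was 0.033, 0.078 and −0.047 in the cocoa arrays and −0.016, −0.046 and 0.00 in the control arrays. The median of the 57 factors was −0.035, −0.115 and −0.078 in the cocoa arrays and 0.079, 0.07 and 0.054 in the control arrays. The factor medians did not overlap between the groups, the kinase medians did, and among the kinases only EIF2AK2 was past the threshold.

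The mRNAs of many translation factors begin with a cytosine followed by an unbroken run of pyrimidines, the 5′ terminal oligopyrimidine tract through which mTOR and LARP1 control their translation. The starts of members that have such a tract and of members that fell without one are shown for comparison, from 5 bases before to 20 bases after the annotated start in GRCh38.p14, with the run from the start base in capitals. EIF3F and EIF4B were added for their sequences after their values were seen. The first 5 have a run of at least 5 pyrimidines, at chr6:73521013-73521037 (minus strand), chr19:3985444-3985468 (minus), chr12:53006451-53006475 (plus), chr11:7987332-7987356 (plus) and chrX:24054951-24054975 (plus).
EEF1A1: acgttCTTTTTCgcaacgggtttgc
EEF2: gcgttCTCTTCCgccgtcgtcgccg
EIF4B: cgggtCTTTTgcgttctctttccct
EIF3F: gcctcCTTCTTTCTCgacaagatgg
EIF2S3: ccttcCTCTTTTggcaacatggcgg
The next 4 genes fell and have no such run at the annotated start, at chr14:75002916-75002940 (plus), chr3:184135353-184135377 (plus), chr1:32222402-32222426 (plus) and chr11:66002138-66002162 (minus).
EIF2B2: gccccggaagtgcaaactgtgtggt
EIF2B5: tccttgcggaagtggtgaccgtgag
EIF3I: gtcttactcacgttgcggccttcct
EIF1AD: ccggaagtacggttttcggagggat

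Such a start was found in 1429 of the 35116 windows (4.07%) and in 11 of the 69 member windows (15.9%), each from a different gene. Of these 11 genes, 1 fell (EIF2S3), none rose (against 6.12% and 7.36% of all genes), and their median difference was −0.10 (−0.41 to 0.03). Of the other 41 members with a window, 10 fell and 2 rose, with a median of −0.17. EIF4B, an activator of the cap-complex helicase, read 0.088, −0.353 and −0.134 in the cocoa arrays and 0.108, 0.112 and 0.122 in the control arrays (−0.25, adjusted p = 0.154, limma). Without cocoa array 1 it passed (−0.36, adjusted p = 0.0237, limma). EIF3F, an eIF3 subunit, read 0.105, −0.047 and −0.258 in the cocoa arrays and −0.003, −0.008 and 0.046 in the control arrays (−0.08, adjusted p = 0.665, limma). In both genes the cocoa arrays were spread more widely than the control arrays.

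Genes next to these factors in the same pathways were counted from fixed lists, against backgrounds of 7.36% of all genes higher and 6.12% lower. Of 9 genes of the integrated stress response, which eIF2 phosphorylation induces, none rose and 1 fell: PPP1R15A, or GADD34, which guides the phosphatase of eIF2. It read −0.269, −0.341 and −0.107 in the cocoa arrays and 0.31, 0.273 and 0.107 in the control arrays, a decrease of 0.47 (SE 0.09, adjusted p = 0.00726, limma). With the 18S covariate that call was lost (adjusted p = 0.055, limma). The other 8 did not pass, and the cocoa arrays disagreed in some of them, of which DDIT4 and ATF4 are named after their values were seen. DDIT4, an inhibitor of mTOR complex 1, read 0.055, 0.015 and 1.7 in the cocoa arrays and −0.015, −0.295 and −0.259 in the control arrays (0.78, adjusted p = 0.222, limma). ATF4, the transcription factor of this response, read −0.559, −0.691 and −0.012 in the cocoa arrays and 0.068, 0.022 and 0.012 in the control arrays (−0.45, adjusted p = 0.0787, limma). Cocoa array 3 stood apart from the other cocoa arrays in both genes. The count of this list depended on it: without cocoa array 3, 4 of the 9 were lower, ATF4 (adjusted p = 0.00227, limma), DDIT3 (adjusted p = 0.0133, limma) and ASNS (adjusted p = 0.0218, limma) joining PPP1R15A. Without cocoa array 1, SESN2 was higher (adjusted p = 0.0352, limma), and it was also higher with array weights. Of 8 partners of the eIF2 kinases, 2 rose and none fell. ADAR, which edits double-stranded RNA and so limits the activation of PKR, read 0.218, 0.406 and 0.25 in the cocoa arrays and −0.25, −0.218 and −0.264 in the control arrays (0.54, SE 0.07, adjusted p = 0.00162, limma). IMPACT, an inhibitor of GCN2 activation, read 0.307, 0.194 and 0.116 in the cocoa arrays and −0.104, −0.293 and −0.111 in the control arrays (0.37, SE 0.08, adjusted p = 0.015, limma, and 0.0714 without control array 2). Both kept their calls with the 18S covariate, and ADAR alone with the 5′ minus 3′ covariate. Without _s_at and _x_at probe sets, IMPACT alone of the 7 partners measured was past the threshold.

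Of 7 measured enzymes that build the modified residues of eIF5A and eEF2, 3 fell and none rose. DOHH, which completes the hypusine of eIF5A, read −0.245, −0.232 and −0.157 in the cocoa arrays and 0.245, 0.102 and 0.137 in the control arrays (−0.37, SE 0.07, adjusted p = 0.00731, limma). DPH2 and DPH7, which help make the diphthamide of eEF2, were lower by 0.39 and 0.37 with the same separation of the groups (adjusted p = 0.0151 and 0.00578, limma). Of 9 other cytosolic factors measured, 2 fell: ABCE1, which recycles ribosomes (−0.39, adjusted p = 0.00748, limma), and HBS1L, a rescue factor of stalled ribosomes (−0.26, adjusted p = 0.0451, limma). Of 9 mitochondrial translation factors measured, 2 fell: MRRF, the mitochondrial ribosome recycling factor (−0.26, adjusted p = 0.0236, limma), and GUF1, a mitochondrial elongation factor (−0.38, adjusted p = 0.0135, limma). Without control array 2 the adjusted p-values of DPH2, HBS1L and MRRF were 0.0634, 0.14 and 0.0828, and that of GUF1 was 0.0507 without control array 3. DPH2 also lost its call without control array 1. Of the fits without 1 array, HBS1L passed only without cocoa array 1, and MRRF only without cocoa array 1 or 3. Both lost their calls with the replicate number as a block, and HBS1L also with array centring. Without control array 3, none of the mitochondrial factors passed. With the 18S covariate, 1 of the 7 calls in these 3 lists remained, DPH7 (adjusted p = 0.0497, limma), and ABCE1, HBS1L, DOHH, DPH2, MRRF and GUF1 lost theirs (adjusted p from 0.0522 to 0.244, limma). With the 5′ minus 3′ covariate, ABCE1, DOHH and DPH7 were past the threshold, and none of the mitochondrial factors was. Without _s_at and _x_at probe sets, 7 genes of each list were measured. DPH2, DPH7 and MRRF passed there, and none of the other cytosolic factors did. None of 8 genes of cap and mTOR control passed in the main fit. RPS6KB1 was lower without cocoa array 1, and RPS6KB2 was lower with array weights, a fit of all 6 arrays.

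Among 9 colon epithelium genes only CDH17, an intestinal cadherin, passed in the main fit (0.56, adjusted p = 0.0126, limma, and 0.0555 without control array 2, 0.0997 with the 18S covariate), and none of 7 measured markers of blood, vessel, connective tissue and liver cells did. The 9 differences ran from 0.02 to 0.56. With the 5′ minus 3′ covariate none of the 9 passed. CDX1 was higher without cocoa array 1 and with array weights, and KRT20 without cocoa array 3. Because the table is centred, presence or absence of a cell type cannot be read from it.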

How the data were processed

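Total RNA of 6 HT29 cultures was hybridised to Affymetrix U133 Plus 2.0 arrays, 1 per culture. The authors made the deposited log2 values with the RMA method, per the submitters' processing notes. RMA subtracts background, equalises the distributions of the arrays and combines the probes of each probe set. GeneSpring GX is named in the series text. For versions, annotation and filters, nothing is given in the sources used here. The log2 scale follows from RMA. Each of the 54675 probe sets has a median of 0 over the 6 arrays, so that levels, detection and signal over background are unknown, and the number of arrays limits the precision. Batches were not analysed here.

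Gene names came from the platform annotation. After 62 control probe sets were removed, 41091 of 54613 had 1 symbol, 1801 had several and 11721 had none. All 65 members matched the RefSeq gene table by gene identifier. Probe sets with 1 symbol were averaged per gene. Cocoa minus control was fitted with limma 3.58.1 (lmFit and eBayes) in R 4.3.3 over all 19775 genes, and separately over all probe sets, with Benjamini-Hochberg adjustment at 0.05. Intervals are 95% from the same fit. No list was tested as a set. The members, pathway lists and tests were chosen with earlier results of these data known. The rule named every member past the threshold, the eIF2 kinases, eIF4E with its binding proteins and 12 central factors, and pathway genes past the threshold.

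No arrays were copies of each other: the SD of differences between arrays was 0.22 to 0.264 within cocoa, 0.175 to 0.215 within control and 0.269 to 0.333 across groups. Alternatives tried were quantile normalisation, array centring, a robust variance prior, array weights, the median of probe sets, no _s_at or _x_at probe sets, the 18S and 5′ minus 3′ signals as covariates, the replicate number as a block, and leaving out each array. The fits were tested on simulated data. Promoter windows came from RefSeq. Python 3.11.15 with numpy 2.4.6, pandas 2.3.3 and matplotlib 3.10.9 made the tables and figures.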

Additional observations from a re-analysis of the deposited data

How the results depend on the processing

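The number of genes past the threshold was 2666, with 16 translation factor genes and 25 of their probe sets. With the 18S covariate these were 1103, 3 and 5, and with the 5′ minus 3′ covariate 1411, 4 and 5. In the fits without 1 array they ran from 1315 to 2881 genes, from 5 to 21 members and from 5 to 28 member probe sets. Without _s_at and _x_at probe sets 1813 genes, 11 members and 10 member probe sets passed, with fewer probe sets tested. Of the 16 changed members, 14 were still measured there, 10 kept their call and 4 lost it, and EIF2AK4 was newly past the threshold. Quantile normalisation (2709 and 16), array centring (2675 and 16), the robust prior (2639 and 16), array weights (3301 and 19) and the median of probe sets (2526 and 16) stayed within 1.5 times the main counts of genes and members. The replicate number as a block gave 1947 genes, 12 members and 11 member probe sets, without EEF1AKMT3, EIF3I, EIF4A3 and ETF1. Same-numbered arrays did not deviate together (r of −0.12, −0.01 and 0), so the numbers were not taken as pairs.

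The kinase median minus the factor median was 0.19, and 0.14 to 0.23 (0.1401 to 0.225) without 1 array. In at least 1 setting, 15 members changed sign, 0 of them among the 16 changed genes and 0 past the threshold in that setting. EIF3C moved farthest, from −0.2195 to 0.1898 with the 18S signal, 0.204 with the 5′ minus 3′ signal and 0.0461 without cocoa array 2. The others stayed within 0.10 of 0 before and after. Among the named genes EEF1A1 was 0.0032 with the median of probe sets, EIF4E was 0.0435 without _s_at and _x_at probe sets, and EIF4EBP2 was 0.0239 beside the 18S signal and 0.017 beside the 5′ minus 3′ signal. Without 1 array, EEF2K ran from −0.0519 to 0.0115, EIF3A from −0.1041 to 0.0124 and EIF4E from −0.0542 to 0.0131. EIF4G1 passed with array weights (−0.30, adjusted p = 0.0361, limma) and without cocoa array 1 (−0.33, adjusted p = 0.026, limma), as did EIF2S1, GSPT1, EIF4B and EIF4H without cocoa array 1 (adjusted p = 0.0422, 0.0307, 0.0237 and 0.0396, limma), EIF2S2 without cocoa array 3 (adjusted p = 0.0396, limma), and EIF2B3 and EIF4H with array weights (adjusted p = 0.0292 and 0.0285, limma). The cause of these changes was not tested. With 3 arrays a group and no levels, small differences of dim probe sets cannot be judged.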

Other observations

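Probe sets annotated to several genes, 1 of them with a symbol of the kind described above, were kept out of the counts. There were 16 of them, 6 with a member of the 65 and 10 with a gene that had no probe set of its own, and 0 passed the adjusted threshold in limma's fit over all probe sets and 6 had an unadjusted p below 0.05. EIF4A1, the helicase of the cap complex, was read by 3 such probe sets, at −0.22 (adjusted p = 0.225, limma), −0.19 (adjusted p = 0.275, limma) and −0.67 (adjusted p = 0.0874, limma). EEF1G, the gamma subunit of the factor that reloads eEF1A, was read by 3 at −0.04, −0.04 and −0.02, and EEF1B2, a subunit of the same factor, by 1 at −0.09 (adjusted p = 0.529, limma). The 3 probe sets shared by EIF3C and its near-identical copy EIF3CL read −0.17, −0.18 and −0.22. EIF4EBP3 was read only together with ANKHD1, at 0.05 (adjusted p = 0.806, limma).

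The E-box CACGTG, the sequence bound by MYC and related factors, which is its own reverse complement, was found in 13 of the 69 member windows (18.8%) and in 2548 of all 35116 windows (7.26%). The 13 genes that held it included EIF2AK2, which rose, EIF4A3, which fell, and EIF4E, EIF4G1 and EEF2K, which did not pass. A match of letters says nothing of binding in these cells.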
